A study of Mus musculus with 20 samples.

Results

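Retinal microglia 3 days after laser lesioning were compared with microglia of unlesioned control retinas. Members are the single wells that the authors' deposited annotation of the retina names Microglia, 81 from day 3 and 120 from control, out of 511 annotated retina wells. Day 3 wells come from the retinas of mice lesioned by laser 3 days earlier, which the labels call CNV, the usual abbreviation of choroidal neovascularization, and control wells come from retinas without a lesion. All mice of both groups were C57BL/6, aged 8 weeks, with no mutant allele or other agent named, and the wells of both were sorted as CD45+ cells after staining for CD45 and CD11b. Each group has 4 libraries of 192 wells, made with mCEL-Seq2, a plate method that counts molecules by molecular identifiers. Libraries 1 and 2 of each group have names that begin with P1, libraries 3 and 4 names that begin with P2, and the labels do not say what the prefix stands for. The day 3 libraries held 18, 12, 12 and 39 microglia wells and the control libraries 17, 15, 29 and 59. Per the series design, 3 independent experiments used about 6 mice, but no library is tied to a mouse, so replicates may share animals.

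Microglia are the resident macrophages of nervous tissue, and in the resting retina they survey the plexiform layers, take up debris and depend on signals that keep them quiescent. After injury they proliferate, change shape, migrate and engulf dying cells, which calls on the cytoskeleton, protein synthesis and lysosomes. The genes best known in this response (lost homeostatic markers, disease-associated markers, interferon genes) are treated here as classic and named only where a result turns on them, so that what follows describes the other genes.

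Transcripts of the genes in the authors' retina table were summed over the microglia wells of each prefix, which gave sums of 109506 (P1) and 218307 (P2) transcripts at day 3, and 65283 (P1) and 147133 (P2) in controls. Levels are given in transcripts per 1000000 of the sum (CPM), P1 before P2, and a gene is said to rise or fall where edgeR's quasi-likelihood test gave an adjusted p under 0.05. Changes are log2 ratios of day 3 over control with a standard error (SE) from the fit. The p-values measure the spread between these sums, which may be technical.

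Day 3 wells held more transcripts of the genes that the authors' table keeps, spread over fewer genes at equal depth. The table leaves out 96 genes of the library tables, 15 of them mitochondrially encoded. Over the genes it keeps, library medians of transcripts per well were 2740.0, 2803, 2575 and 2752 at day 3, against 1610 (1609.6), 2036, 1965 and 1418 in controls, a difference of 960.4 (two-sided exact permutation test over 4 against 4 libraries, p = 0.0286, adjusted p = 0.0429 over 3 quantities). That p is the smallest the 70 arrangements allow, and with any 1 library left out no arrangement of the rest can pass the threshold. With the 96 genes counted too, a total added after the data were seen, the medians were 3546, 4297, 3954 and 5550 (5549.9) at day 3, against 4712, 4021, 3683 and 3120.1 in controls, and the libraries of the groups overlapped (difference 452.6; exact permutation test, adjusted p = 0.486). The difference in depth was thus past the threshold over the table's genes and not over all genes. With every well thinned to 1000 transcripts of the table's genes, the medians were 701, 698, 698 and 710.0 genes at day 3, against 752, 749, 749 and 757 in controls, and the groups did not overlap (exact permutation test, adjusted p = 0.0429). The mitochondrial share of a well averaged 11.8% ± 2.19 at day 3 and 8.64% ± 2.46 in controls (SD, n = 4 libraries each; exact permutation test, p = 0.143). The 81 left-out genes that are not mitochondrial held 2.19, 12.8, 3.70 and 9.38% of a median day 3 well's transcripts, against 44.9, 42.7, 33.9 and 43.3% of a median control well's. The groups are far apart in that share, and its part in the results was tested only by keeping the wells where it was under 30%. With these 81 genes out of the total, the mitochondrial share averaged 13.8% ± 1.87 at day 3 and 14.7% ± 2.59 in controls (SD, n = 4 libraries each), lower at day 3 by less than the spread between libraries.

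**Figure D1:**
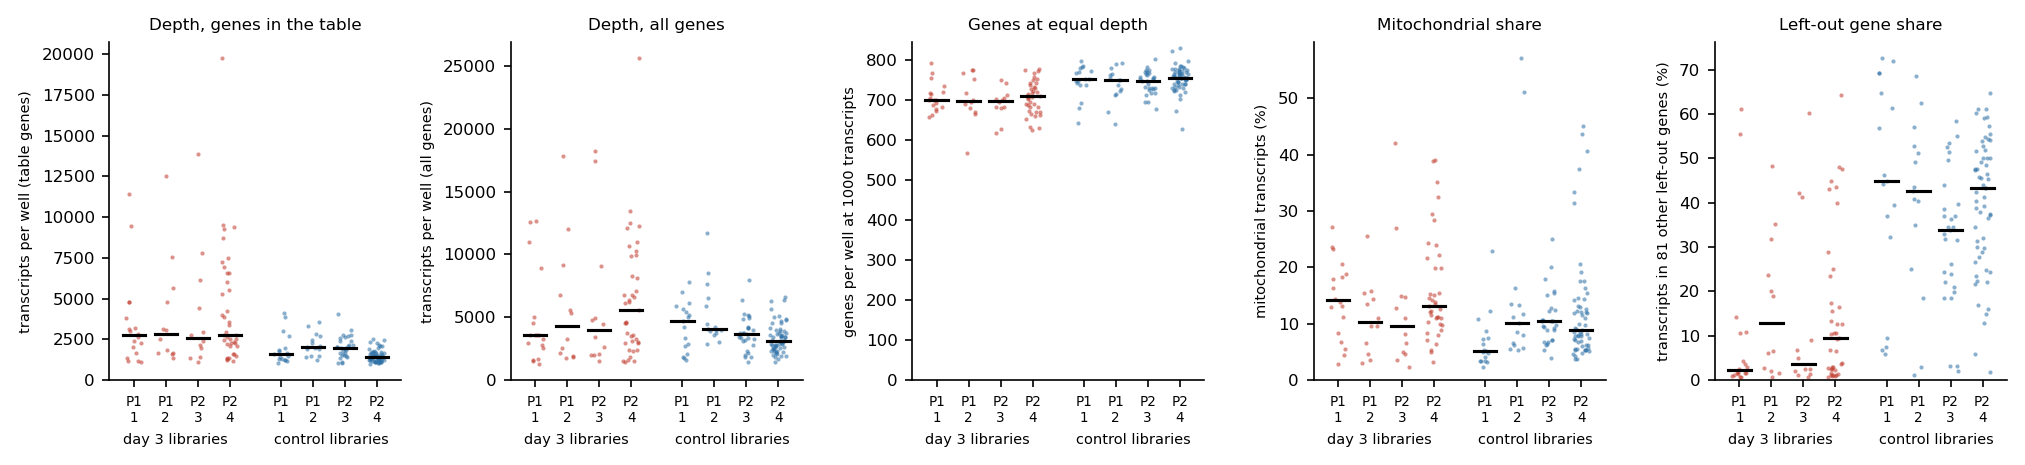
Quality of single microglia wells by library, day 3 left and control right (points are wells, bars library medians; P1 and P2 are name prefixes). The y axes show transcripts per well over the genes of the authors' table and over all genes, genes per well at 1000 transcripts, and the percentages of transcripts in mitochondrially encoded genes and in the 81 other genes that the authors left out. Day 3 library medians were higher over the table's genes and overlapped with controls over all genes. Day 3 wells held fewer genes at equal depth, and held a median of 2.19 to 12.8% in the left-out genes, against 33.9 to 44.9% in control libraries.

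Of 3408 genes tested, 407 rose (11.9%) and 359 fell (10.5%) at day 3, and the median log2 change of all tested genes was 0.03. The count of 766 calls was 480 without the day 3 P2 sum and 416 without the control P2 sum, 348 without the 28 wells richest in cell division transcripts and 138 of 1680 tested genes when wells with 30% or more in the left-out genes were dropped, a setting added after the data were seen. Without TMM scaling of the sums, 340 rose and 446 fell. Of the genes that the naming rule selects, 81.5% were called, against 22.5% of all genes tested. The rule picks by call and adjusted p, so a high share is built into it. Of the called named genes, 75 were called whichever sum was left out. Where a gene described here lost its call with a sum left out, the sum is named, and a list's count that moved by more than 1.5 times without a sum is given beside it. Among called genes, 92.1% of those that rose and 75.8% of those that fell were protein coding, against 92.3% of all genes tested.

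**Figure D2:**
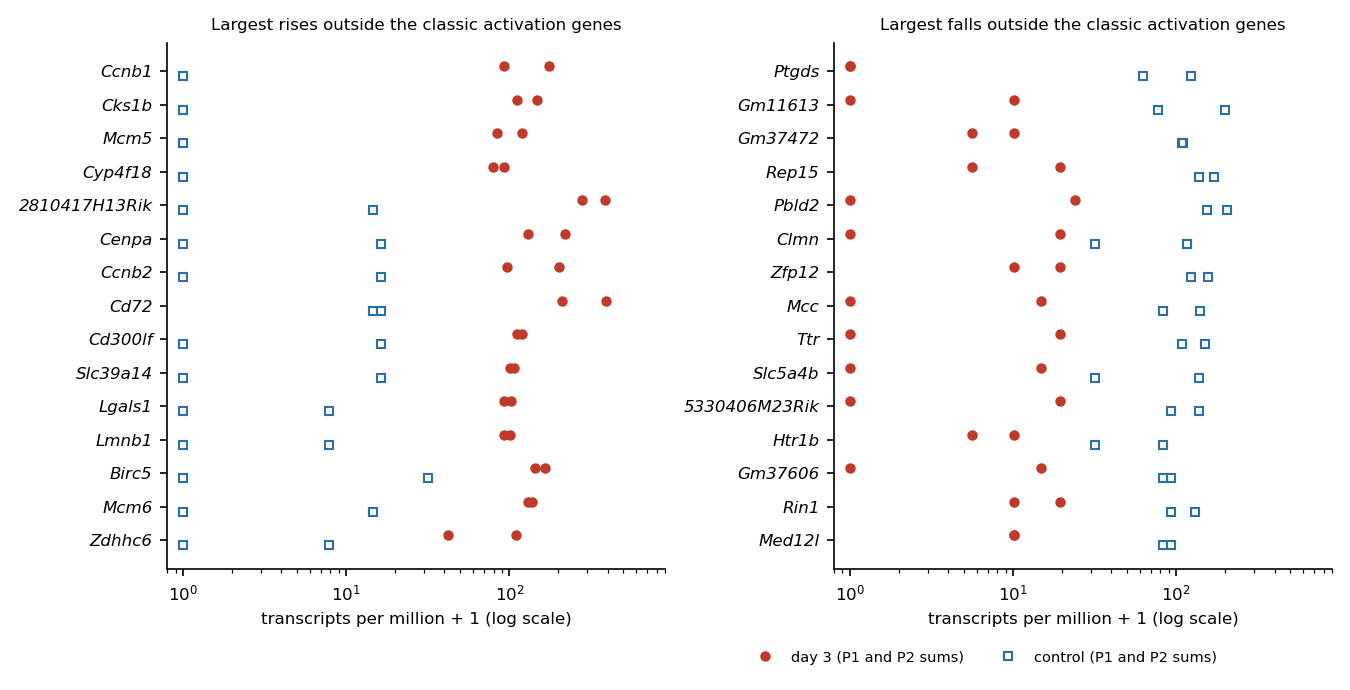
The 15 largest rises and 15 largest falls outside the classic genes, drawn as CPM plus 1 on a log axis (red circles, the P1 and P2 sums at day 3; open blue squares, the P1 and P2 control sums). In each row the day 3 and control sums stand apart, which the rule for choosing these genes required. Control sums of Ccnb1, Cks1b, Mcm5 and Cyp4f18 are at 0, as are the day 3 sums of Ptgds.

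The largest rises mixed cell division genes with a few surface and enzyme genes. Outside division, Cd72, a lectin-like receptor best known for restraining B cells, was at 210.0 and 389 CPM at day 3, against 15.3 and 13.6 CPM in controls. Its ratio was 23.3 (95% counting interval 7.77 to 114.9), and the gene rose (edgeR adjusted p = 7.68e-05). Cd300lf, a receptor that binds lipids exposed on dying cells, was at 119 and 109.9 CPM at day 3, against 15.3 and 0 CPM in controls, and rose (edgeR adjusted p = 0.00143; not called without control P2). Both were next to absent in control sums and clearly present in both day 3 sums. Cyp4f18, a cytochrome P450 that in mouse inactivates leukotriene B4, was at 91.3 and 77.9 CPM at day 3, against 0 and 0 CPM in controls, at least 5.83-fold higher with 3 transcripts set for the empty control group (edgeR adjusted p = 0.00317). Slc39a14, a zinc and iron importer, was at 100.5 and 105 CPM at day 3, against 15.3 and 0 CPM in controls (edgeR adjusted p = 0.0118; not called without day 3 P2 or control P2). Lgals1, a galectin, Lmnb1, a nuclear lamin, and Zdhhc6, a palmitoyltransferase, complete the rises that do not belong to the division lists. Lgals1 was not called without day 3 P2 or control P2, Lmnb1 without day 3 P2 and Zdhhc6 without day 3 P1 or control P2.

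Falls were led by genes at low levels. Rep15, an effector of Rab15 in endosome recycling, was at 18.3 and 4.58 CPM at day 3, against 168.5 and 136 CPM in controls, and fell (edgeR adjusted p = 0.000475). Pbld2 was at 0 and 22.9 CPM at day 3, against 153 and 204 CPM in controls, and fell by 3.51 ± 0.63 on the log2 scale (edgeR adjusted p = 0.000368). Every control sum of these genes was above 130 CPM while no day 3 sum reached 25. Mcc, a negative regulator of the cell cycle in human cells, was at 0 and 13.7 CPM at day 3, against 138 and 81.6 CPM in controls (edgeR adjusted p = 0.00857). Rin1, a Ras effector that activates Rab5, was at 18.3 and 9.16 CPM at day 3, against 91.9 and 129 CPM in controls (edgeR adjusted p = 0.00665; not called without day 3 P2 or control P2). Zfp12, a zinc finger gene, was at 18.3 and 9.16 CPM at day 3, against 123 and 156 CPM in controls (edgeR adjusted p = 0.0016; not called without control P2). The serotonin receptor gene Htr1b, Clmn, Slc5a4b, Med12l and the unnamed models Gm11613, Gm37472, Gm37606 and 5330406M23Rik also fell. Htr1b, Clmn, Slc5a4b, Gm11613 and Gm37472 lost their calls without day 3 P2 or control P2, 5330406M23Rik without control P2, and Med12l and Gm37606 when any 1 of the 4 sums was left out.

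Ptgds, the lipocalin-type prostaglandin D synthase, and Ttr, the transthyretin that pigment epithelium secretes, belong to the 15 largest falls too. Ptgds was at 0 and 0 CPM at day 3, against 123 and 61.2 CPM in controls, at least 8.75-fold lower (edgeR adjusted p = 0.00597). Ttr was at 0 and 18.3 CPM at day 3, against 107 and 149.5 CPM in controls (edgeR adjusted p = 0.0218). The 9 pigment epithelium markers listed, of which Ttr is one, summed to 0 and 32.1 CPM at day 3, against 138 and 231 CPM in controls, and 5 of them (Rpe65, Tyrp1, Dct, Pmel and Mlana) were at 0 at day 3. The part of this RNA in the 2 falls was not tested.

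Cell division genes rose as a group, in a part of the wells. Of the mitosis list, 22 of 45 listed genes were tested, 16 rose and 0 fell, which is 72.7% of those tested against 11.9% of all genes. The count of rises was 10 without control P2. The median log2 change of the list was 2.92, also with genes of an empty control group at their bound. Of the DNA replication list, 5 of 34 listed genes were tested, 3 rose and 0 fell, with a median of 3.03 (2.74 with bounds), and the count was 7 without day 3 P2, 7 without control P1 and 1 without control P2. Only members above the filter on low counts were tested. The filter used the day 7 sums too, so a gene near 0 in controls passes it only when high in sums of day 3 or day 7. With no filter, 27 of the 45 mitosis genes and 8 of the 34 replication genes rose, and 0 fell in both lists.

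Among mitotic genes, the B cyclin gene Ccnb1, whose product activates the kinase that drives entry into mitosis, was at 174 and 91.6 CPM at day 3, against 0 and 0 CPM in controls, at least 8.42-fold higher (edgeR adjusted p = 0.00108). Cks1b, a small subunit of cyclin-dependent kinases, was at 146 and 109.9 CPM at day 3, against 0 and 0 CPM in controls, at least 8.64-fold higher (edgeR adjusted p = 0.00178). Neither gene had a transcript in any control well. Cenpa, the histone variant that marks centromeres, was at 219 and 128 CPM at day 3, against 15.3 and 0 CPM in controls, a ratio of 33.7 (95% counting interval 5.79 to 1356). The condensin subunit gene Smc4 was at 466 and 261 CPM at day 3, against 123 and 40.8 CPM in controls, a change of 2.37 ± 0.46 (edgeR adjusted p = 0.000954). Ube2s, which extends ubiquitin chains for the anaphase-promoting complex, was at 210.0 and 261 CPM at day 3, against 46.0 and 47.6 CPM in controls, a change of 2.35 ± 0.46 (edgeR adjusted p = 0.000887). Ccnb2, the second B cyclin, and Birc5, a chromosomal passenger protein, rose as well, and lost their calls without day 3 P1 or control P2 and without control P2. In all of these genes the P1 and P2 sums of day 3 stood above both control sums. Day 3 and control sums stood apart in 62.9% of all tested genes, and the rule required it of the largest rises.

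In replication, 2810417H13Rik, which RefSeq lists as a synonym of the PCNA-clamp associated factor Pclaf, was at 384 and 279 CPM at day 3, against 0 and 13.6 CPM in controls, a ratio of 33.4 (95% counting interval 9.01 to 279) (edgeR adjusted p = 1.03e-05). Mcm6, a subunit of the helicase that opens replication origins, was at 137 and 128 CPM at day 3, against 0 and 13.6 CPM in controls. Mcm5, another subunit, was at 119 and 82.5 CPM at day 3, against 0 and 0 CPM in controls. Both rose. Mcm6 was called whichever sum was left out and Mcm5 was not called without control P2. Lig1, the ligase that joins Okazaki fragments, rose with a ratio of 7.99 (95% counting interval 2.53 to 40.5), though not without day 3 P1 or control P2. Pcna, the sliding clamp, was at 384 and 188 CPM at day 3, against 199 and 67.97 CPM in controls, with overlapping sums (edgeR adjusted p = 0.0921). Chromatin proteins moved in the same direction. Of the chromatin and histone list, 20 of 31 listed genes were tested, 12 rose and 0 fell, with a median log2 change of 1.40. Among them, Hmgn2, a nucleosome-binding protein, was at 310.5 and 243 CPM at day 3, against 15.3 and 74.8 CPM in controls, a change of 2.32 ± 0.46 (edgeR adjusted p = 0.000951). H2afz, a histone H2A variant, was at 739.7 and 568 CPM at day 3, against 199 and 169.9 CPM in controls, a change of 1.86 ± 0.29 (edgeR adjusted p = 0.000134).

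The division genes were concentrated in few wells. A well was counted as dividing where the mitosis and replication lists held 1% or more of its transcripts, a limit set for this comparison. Of day 3 wells, 28 of 81 (34.6%) met it, 12 of 18, 3 of 12, 5 of 12 and 8 of 39 in libraries 1 to 4. No control well of 120 did, which allows a share of up to 2.5% by counting error alone. Library 1 thus held 12 of the 28 wells. Without the 28 wells, 0 of 5 tested mitosis genes and 0 of 4 replication genes were called, and the median of the mitosis list was -0.01. Chromatin genes also lost calls, with 3 of 15 tested genes rising. The construction of this setting removes the wells by those lists.

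Promoters of the mitotic genes that rose were searched for letters that the choice of genes did not use. Mitosis genes that did not rise were not searched. The shares therefore cannot set the rising genes apart from mitosis genes in general. The CCAAT box is bound by the factor NF-Y, and the cell cycle homology region (CHR, here the letters TTTGAA or TTCGAA) by complexes that repress division genes in resting cells. Of the 16 mitosis genes that rose, 14 have a promoter in the RefSeq table of build GRCm38.p6. In the 250 bases before the start site, read on both strands, CCAAT stood in 11 of the 14 (78.6%). It stood in 37.5% of 27025 genes in that table and in 40.0% of the tested genes with a promoter. A CHR stood in 7 of the 14, against 19.6% of the table and 14.7% of the tested genes. Both stood in 6 (42.9%), against 7.93% of the table and 6.96% of the tested genes. Birc5 and Tacc3 had neither. The promoters of 3 of the named genes are shown as examples. None of the 3 had a transcript in more than 1 control sum, which also holds for Cenpa, not shown. CCAAT, its reverse complement ATTGG and the CHR letters on either strand are in capitals. All 3 lie on the minus strand and are written 5′ to 3′ (chr13:100786487-100786736, chr9:70421555-70421804 and chr3:89418292-89418541).
Ccnb1: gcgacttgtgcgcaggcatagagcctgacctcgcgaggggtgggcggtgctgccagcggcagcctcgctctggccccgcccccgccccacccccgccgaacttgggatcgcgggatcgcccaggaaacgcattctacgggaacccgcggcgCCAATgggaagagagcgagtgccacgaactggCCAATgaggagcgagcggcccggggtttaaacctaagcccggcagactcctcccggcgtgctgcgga
Ccnb2: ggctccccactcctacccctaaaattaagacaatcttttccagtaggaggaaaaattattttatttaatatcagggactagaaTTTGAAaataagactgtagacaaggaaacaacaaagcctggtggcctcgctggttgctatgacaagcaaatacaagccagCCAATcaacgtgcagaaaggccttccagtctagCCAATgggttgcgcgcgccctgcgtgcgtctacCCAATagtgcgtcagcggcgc
Cks1b: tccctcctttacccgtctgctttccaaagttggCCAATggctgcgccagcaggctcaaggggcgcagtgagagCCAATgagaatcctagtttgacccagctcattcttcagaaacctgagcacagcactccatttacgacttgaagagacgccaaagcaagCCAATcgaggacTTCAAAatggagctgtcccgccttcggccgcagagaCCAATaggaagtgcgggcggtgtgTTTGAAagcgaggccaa
Ccnb1 has 2 CCAAT boxes and no CHR match in this window, Ccnb2 has 3 CCAAT boxes and 1 CHR match, and Cks1b has 4 CCAAT boxes and 2 CHR matches. These are matches of letters, not measured binding.

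**Figure D3:**
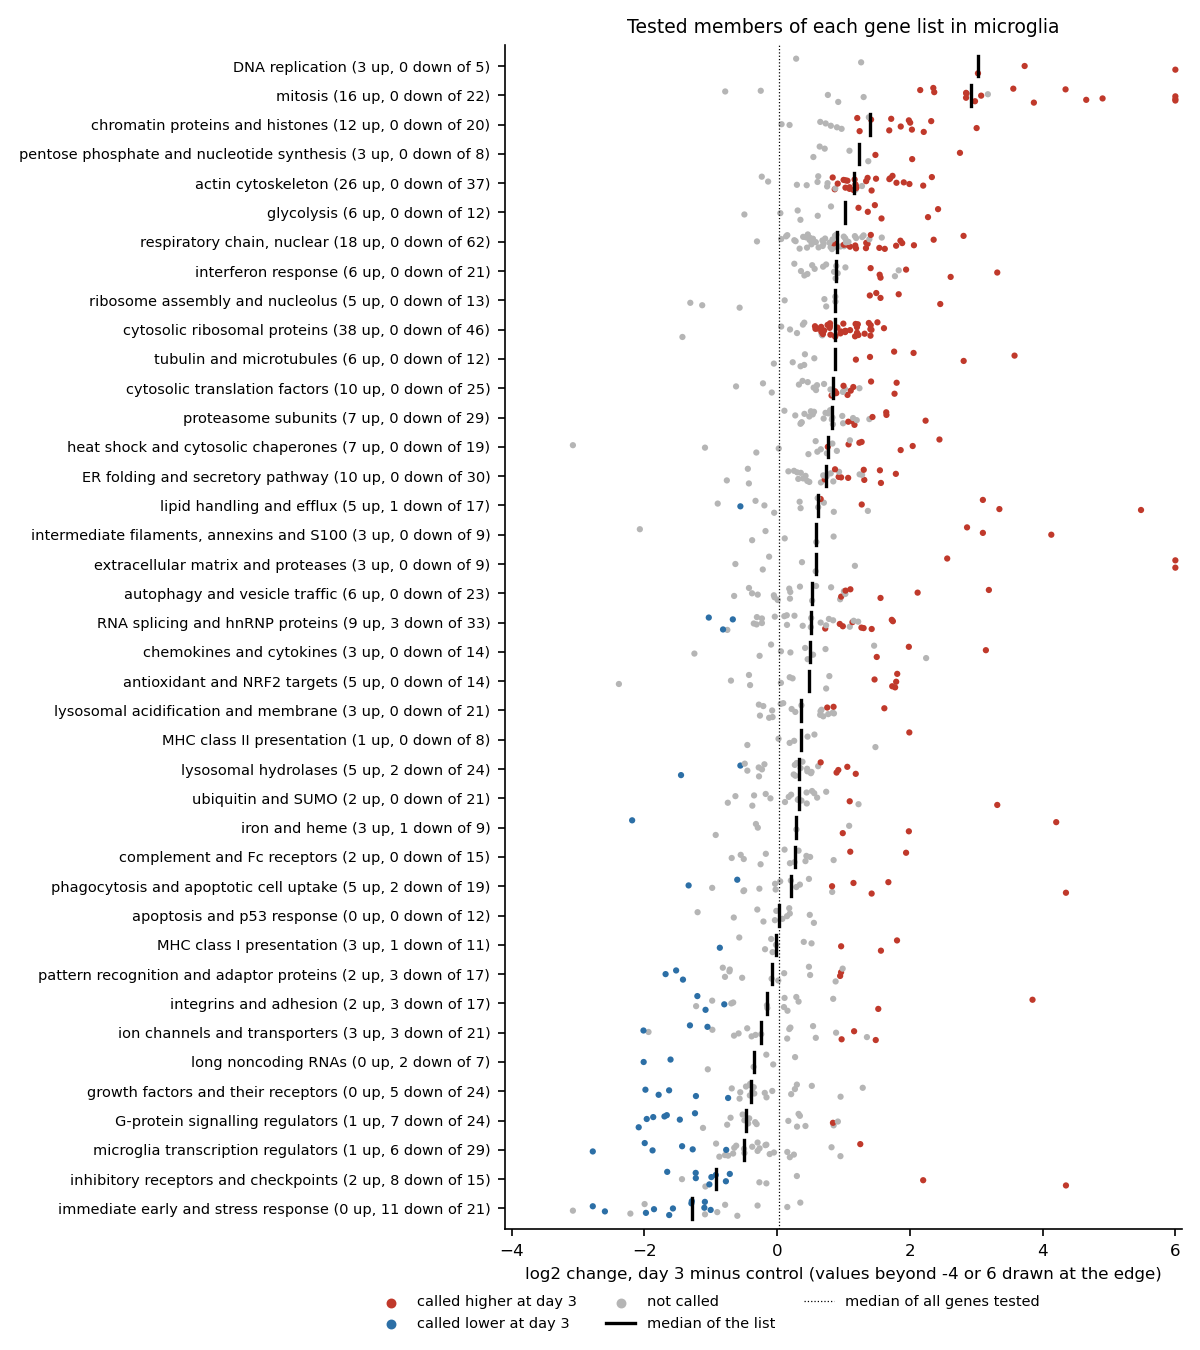
Log2 change, day 3 minus control, of every tested member of each gene list with 3 or more tested (points; red, rose; blue, fell; grey, not called), with the list's median as a bar and the median of all genes, 0.03, as a dotted line. Division, cytoskeleton, translation and energy lists lie to the right, with 38 of 46 ribosomal protein genes and 26 of 37 actin genes up, and immediate early, inhibitory receptor and transcription regulator lists lie to the left.

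Genes that make protein rose together. Of the cytosolic ribosomal proteins, 46 of 55 listed genes were tested, 38 rose and 0 fell, or 82.6% of those tested against 11.9% of all genes, with a median log2 change of 0.88. The count was 25 without day 3 P2 and 25 without control P2. Without the dividing wells 23 of 46 tested genes of the list rose, in a fit where 198 of 3339 tested genes rose. Summed, the list held 48061 and 47479 CPM at day 3, against 28200.3 and 26133 CPM in controls. Rps15, a small-subunit protein, was at 922 and 925 CPM at day 3, against 291 and 319 CPM in controls, a change of 1.61 ± 0.24 (edgeR adjusted p = 6.24e-05). Rpsa, the small-subunit protein that also serves as a laminin receptor, was at 1735 and 1786 CPM at day 3, against 797 and 509.7 CPM in controls, a change of 1.51 ± 0.22 (edgeR adjusted p = 6.24e-05). The stalk protein gene Rplp0 changed by 1.42 ± 0.24 (edgeR adjusted p = 0.000232). Ribosomal protein genes have many near-identical copies, and how shared reads were treated is not given, so the single genes are less certain than the list.

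Translation factors and nucleolar genes showed the same direction. Of the translation factor list, 25 of 27 listed genes were tested, 10 rose and 0 fell, with a median log2 change of 0.85. Eif5a, which eases peptide bond formation at difficult sequences, was at 822 and 783 CPM at day 3, against 184 and 265 CPM in controls, a change of 1.80 ± 0.27 (edgeR adjusted p = 8.89e-05). Eef1g, of the elongation factor 1 complex, and Pabpc1, the poly(A)-binding protein, changed by 1.77 ± 0.31 and 1.42 ± 0.21 (edgeR adjusted p = 0.000347 and 6.24e-05). Of the ribosome assembly and nucleolus list, 13 of 20 listed genes were tested, 5 rose and 0 fell. Ncl, the nucleolin of ribosomal RNA transcription, was at 685 and 508 CPM at day 3, against 46.0 and 143 CPM in controls, a change of 2.46 ± 0.46 (edgeR adjusted p = 0.00162). Npm1, a histone and ribosome chaperone, changed by 1.56 ± 0.27 (edgeR adjusted p = 0.000382). Splicing genes were called in both directions. In that list 33 of 33 listed genes were tested, 9 rose and 3 fell (5 rose and 1 fell without day 3 P1, 1 fell without day 3 P2, 5 rose without control P1, 0 fell without control P2). That is 27.3% rising and 9.09% falling, against 11.9% and 10.5% of all genes, so the falls are near the share of all genes. Without the dividing wells 0 of the 33 rose and 2 fell. Hnrnpa1, which binds exonic silencers, was at 374 and 279 CPM at day 3, against 107 and 129 CPM in controls, and rose (edgeR adjusted p = 0.00441). The RNA helicase gene Ddx5 was at 804 and 769.6 CPM at day 3, against 1195 and 1590.4 CPM in controls, and fell (edgeR adjusted p = 0.00624; not called without day 3 P2 or control P2).

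Chaperone, secretory pathway and proteasome lists held rises and no falls. Hsp90ab1, the constitutive cytosolic HSP90, was at 1625 and 1530.0 CPM at day 3, against 414 and 374 CPM in controls, a change of 2.04 ± 0.24 (edgeR adjusted p = 3.72e-06). Both day 3 sums were more than 3 times either control sum. In its list of cytosolic chaperones 19 of 23 listed genes were tested, 7 rose and 0 fell (1 fell without control P1). The peptidyl-prolyl isomerase Ppia was among them, with a change of 1.27 ± 0.19 (edgeR adjusted p = 9.2e-05). So was the chaperonin subunit Tcp1, with 2.45 ± 0.60 (edgeR adjusted p = 0.00469; not called without control P2). In the endoplasmic reticulum (ER) list 30 of 36 listed genes were tested, 10 rose and 0 fell (6 rose without day 3 P1, 5 rose without control P2). Without the dividing wells 5 of 30 tested ER genes rose. Calr, a calcium-binding lectin chaperone, was at 1525 and 1576 CPM at day 3, against 475 and 578 CPM in controls, a change of 1.56 ± 0.22 (edgeR adjusted p = 4.73e-05). Hsp90b1, the HSP90 of the ER, was at 1854 and 1489 CPM at day 3, against 659 and 700.0 CPM in controls, and Sec61b, of the translocation channel, changed by 1.79 ± 0.39 (edgeR adjusted p = 0.00222). Of the proteasome subunits, 29 of 31 listed genes were tested, 7 rose and 0 fell. All 29 tested had a log2 change above 0, where 50.7% of all tested genes did, and their median was 0.83. The proteasome count was 4 without day 3 P1, 3 without day 3 P2 and 2 without control P2, and 0 of 24 without the wells richest in division transcripts, which are described with the division genes.

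Most tested genes of the actin cytoskeleton rose. Of its list, 37 of 42 listed genes were tested, 26 rose and 0 fell, or 70.3% of those tested against 11.9% of all genes, and the median log2 change was 1.15. Actb, cytoplasmic actin, was at 18702 and 18721 CPM at day 3, against 7904 and 6382 CPM in controls, a change of 1.42 ± 0.17 (edgeR adjusted p = 8.55e-06). Tmsb4x, which sequesters actin monomers, was at 16620.1 and 15890.5 CPM at day 3, against 6985 and 5947 CPM in controls, a change of 1.36 ± 0.17 (edgeR adjusted p = 8.55e-06). Pfn1, the profilin that feeds monomers to growing filaments, was at 868 and 1054 CPM at day 3, against 368 and 265 CPM in controls, a change of 1.69 ± 0.27 (edgeR adjusted p = 0.00014). Cotl1, a filament-binding protein of the cofilin family, was at 794 and 632 CPM at day 3, against 245 and 184 CPM in controls, a change of 1.80 ± 0.29 (edgeR adjusted p = 0.000169). In each of the 4 genes both day 3 sums were more than 2 times either control sum. Without the dividing wells 16 of 36 tested actin genes rose, and with wells poor in the left-out genes 8 of 34.

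Microtubule genes rose in part. Of the tubulin list, 12 of 16 listed genes were tested, 6 rose and 0 fell. Without the dividing wells 2 of 11 tested genes of the list rose. Tubb5 and Tubb4b, beta tubulins, changed by 1.76 ± 0.23 and 2.06 ± 0.40 (edgeR adjusted p = 2.17e-05 and 0.000887). The alpha tubulin gene Tuba1c was at 292 and 394 CPM at day 3, against 61.3 and 13.6 CPM in controls, a change of 3.58 ± 0.50 (edgeR adjusted p = 4.12e-05). Tubb5 kept its call without the dividing wells at 0.92 (edgeR adjusted p = 0.0342), whereas Tubb4b was at 0.04 there (edgeR adjusted p = 0.973). In the list of intermediate filaments, annexins and S100 proteins 9 of 20 listed genes were tested, 3 rose and 0 fell (1 rose without day 3 P2, 1 fell without control P1). Anxa3, an annexin, was at 411 and 563 CPM at day 3, against 536 and 748 CPM in controls, with overlapping sums. Of integrins and adhesion genes, 17 of 25 listed genes were tested, 2 rose and 3 fell (1 fell without day 3 P1, 1 rose without day 3 P2, 1 rose and 1 fell without control P2). These shares of 11.8% and 17.6% are near the 11.9% and 10.5% of all genes. The junction protein gene F11r was at 584 and 819.9 CPM at day 3, against 1134 and 1373 CPM in controls, and fell (edgeR adjusted p = 0.0108; not called without day 3 P1 or control P2). The hyaluronan receptor gene Cd44 was at 109.6 and 109.9 CPM at day 3, against 61.3 and 27.2 CPM in controls, and rose (edgeR adjusted p = 0.0454; not called without day 3 P1, day 3 P2 or control P2). Of the matrix list, 9 of 24 listed genes were tested, 3 rose and 0 fell. The rises were 2 classic genes and Tgfbi, a matrix protein induced by TGF-beta. Tgfbi was at 164 and 531 CPM at day 3, against 107 and 40.8 CPM in controls (edgeR adjusted p = 0.0135; not called without day 3 P2).

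Energy metabolism lists held rises and no falls. Of glycolysis, 12 of 18 listed genes were tested, 6 rose and 0 fell, with a median log2 change of 1.02. Beyond the classic members, Pgk1, which makes the first ATP of glycolysis, was at 201 and 160.3 CPM at day 3, against 30.6 and 34.0 CPM in controls, a change of 2.43 ± 0.54 (edgeR adjusted p = 0.00224), although its near-identical copy Pgk1-rs7 rose as well and reads may be shared. Tpi1, triosephosphate isomerase, was at 274 and 261 CPM at day 3, against 76.6 and 109 CPM in controls, a change of 1.47 ± 0.36 (edgeR adjusted p = 0.00562). Ldha, lactate dehydrogenase A, was at 594 and 715 CPM at day 3, against 383 and 184 CPM in controls. Eno1, an enolase, was at 247 and 302 CPM at day 3, against 107 and 88.4 CPM in controls. Both rose, and lost their calls without control P2 (Ldha) and without day 3 P2 or control P2 (Eno1). In the pentose phosphate and nucleotide list 8 of 30 listed genes were tested, 3 rose and 0 fell. Pgls, the lactonase of the oxidative branch, was at 119 and 142 CPM at day 3, against 46.0 and 6.80 CPM in controls. Nme1, a nucleoside diphosphate kinase, was at 247 and 160.3 CPM at day 3, against 76.6 and 34.0 CPM in controls. Both were among the rises, neither without control P2, and the count was 6 without control P1 and 0 without control P2.

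Nuclear genes of the respiratory chain moved in nearly 1 direction, with fewer calls than the ribosomal list. Of that list, 62 of 66 listed genes were tested, 18 rose and 0 fell, 29.0% of those tested against 11.9% of all genes, and 61 of 62 had a log2 change above 0, where 50.7% of all tested genes did. Its count was 8 without day 3 P2 and 5 without control P2. Without the dividing wells 7 of 58 tested genes of the list rose. Atp5f1, a subunit of the ATP synthase stator, was at 338 and 316 CPM at day 3, against 123 and 109 CPM in controls, a change of 1.54 ± 0.34 (edgeR adjusted p = 0.00222). Cox4i1, of cytochrome oxidase, was at 438 and 431 CPM at day 3, against 260.4 and 156 CPM in controls, a change of 1.18 ± 0.31 (edgeR adjusted p = 0.00803; not called without control P2). The 15 mitochondrially encoded genes are among those the authors left out of their table. In a fit on all genes of the library tables, added after the data were seen, 0 of these 15 rose and 7 fell by edgeR, with a median log2 change of -0.58. In that fit 17 of 64 nuclear genes of the chain rose and 0 fell. Taken as a share of all transcripts of a well, the mitochondrially encoded genes were at 11.8% at day 3 and 8.64% in controls, as given above, so their direction depends on the scaling.

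Redox and iron genes rose at a few nodes. Of the antioxidant list, 14 of 34 listed genes were tested, 5 rose and 0 fell (1 fell without control P1, 3 rose without control P2). Gpx1, the glutathione peroxidase, was at 1151 and 1086 CPM at day 3, against 459.5 and 265 CPM in controls, a change of 1.73 ± 0.26 (edgeR adjusted p = 6.24e-05). Txn1 and Prdx1, thioredoxin and a peroxiredoxin that it recycles, changed by 1.81 ± 0.37 and 1.47 ± 0.30 (edgeR adjusted p = 0.00138 and 0.00137). Mt1, a metal-binding metallothionein, was at 310.5 and 266 CPM at day 3, against 138 and 54.4 CPM in controls (edgeR adjusted p = 0.00274; not called without control P2). Of the iron and heme list, 9 of 18 listed genes were tested, 3 rose and 1 fell (0 fell without day 3 P1, 0 fell without day 3 P2, 0 fell without control P1, 0 fell without control P2). Fth1, the ferritin heavy chain that stores iron, was at 2840.0 and 3509 CPM at day 3, against 1838 and 1468 CPM in controls, a change of 0.99 ± 0.19 (edgeR adjusted p = 0.000816). The importer gene Slc39a14 rose as given above. Slc40a1, ferroportin, the exporter of iron, was at 18.3 and 32.1 CPM at day 3, against 138 and 122 CPM in controls, and fell by 2.18 ± 0.68 (edgeR adjusted p = 0.0218). Its 2 control sums were more than 3 times its highest day 3 sum, yet it was not called when any 1 of the 4 sums was left out.

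Lipid genes held few calls beyond the classic ones. Of the list, 17 of 33 listed genes were tested, 5 rose and 1 fell (0 fell without day 3 P1, 2 rose without day 3 P2, 3 rose and 0 fell without control P2). Of 12 tested genes outside the classic set, 2 rose and 0 fell. Plin2, which coats lipid droplets, was at 109.6 and 132.8 CPM at day 3, against 0 and 20.4 CPM in controls, a ratio of 8.86 (95% counting interval 2.83 to 44.7) (edgeR adjusted p = 0.00763; not called without day 3 P2). Psap, the precursor of lysosomal saposins, was at 2091 and 2620.2 CPM at day 3, against 1869 and 1251 CPM in controls (edgeR adjusted p = 0.027; not called without day 3 P2 or control P2). Of 23 cholesterol synthesis and uptake genes 1 passed the filter on low counts, so the pathway could not be read at this depth.

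Lysosomal hydrolases held calls in both directions. Of that list, 24 of 31 listed genes were tested, 5 rose and 2 fell (1 fell without day 3 P1, 4 fell without day 3 P2, 1 fell without control P2). That is 20.8% rising and 8.33% falling, against 11.9% and 10.5% of all genes, so the falls are near the share of all genes. Cst3, the secreted cysteine protease inhibitor cystatin C, which the list holds as the partner of the cathepsins, was at 6575 and 8552 CPM at day 3, against 24723 and 17569 CPM in controls, and fell by 1.45 ± 0.18 (edgeR adjusted p = 1.36e-05). Ctsz, cathepsin Z, was at 1415 and 1434 CPM at day 3, against 812 and 734 CPM in controls, a rise of 0.92 ± 0.20 (edgeR adjusted p = 0.00219). Gusb, a glucuronidase, was at 904 and 802 CPM at day 3, against 597 and 292 CPM in controls (edgeR adjusted p = 0.00787; not called without control P2). Of lysosomal membrane and acidification genes, 21 of 25 listed genes were tested, 3 rose and 0 fell. That share of rises, 14.3%, is near the 11.9% of all genes. Grn, progranulin, was at 2804 and 3083 CPM at day 3, against 1762 and 1590.4 CPM in controls, a rise of 0.85 ± 0.18 (edgeR adjusted p = 0.00169). The proton pump subunits Atp6v1a and Atp6v1b2 changed by 0.86 ± 0.34 and 0.84 ± 0.40 without passing (edgeR adjusted p = 0.0703 and 0.128). Of autophagy and vesicle genes, 23 of 29 listed genes were tested, 6 rose and 0 fell, a count that was 1 without day 3 P2 and 1 without control P2. Rab32, a small GTPase of lysosome-related organelles, was at 146 and 183.2 CPM at day 3, against 76.6 and 20.4 CPM in controls (edgeR adjusted p = 0.00742). Gabarap, a ubiquitin-like protein of autophagosomes, was at 438 and 641 CPM at day 3, against 322 and 265 CPM in controls (edgeR adjusted p = 0.016). Neither was called without day 3 P2 or control P2.

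Uptake and immune-sensing genes were called in both directions. Of phagocytosis genes, 19 of 32 listed genes were tested, 5 rose and 2 fell (1 fell without day 3 P1, 3 rose and 0 fell without day 3 P2, 1 fell without control P1). That is 26.3% rising and 10.5% falling, against 11.9% and 10.5% of all genes. Mertk, the receptor tyrosine kinase that clears apoptotic cells, was at 310.5 and 192 CPM at day 3, against 613 and 632 CPM in controls, and fell by 1.33 ± 0.28 (edgeR adjusted p = 0.00171; not called without day 3 P2). Rac2, a small GTPase of blood cells, was at 411 and 389 CPM at day 3, against 123 and 129 CPM in controls, a rise of 1.68 ± 0.32 (edgeR adjusted p = 0.000868). Of complement and Fc receptor genes, 15 of 23 listed genes were tested, 2 rose and 0 fell (4 rose without control P1), a share of rises (13.3%) near that of all genes. Fcgr4, an activating IgG receptor, was at 247 and 311 CPM at day 3, against 61.3 and 81.6 CPM in controls, a rise of 1.94 ± 0.40 (edgeR adjusted p = 0.00126). Of pattern recognition genes, 17 of 30 listed genes were tested, 2 rose and 3 fell (1 fell without day 3 P1, 0 rose without day 3 P2, 1 rose and 1 fell without control P2), or 11.8% and 17.6% of those tested. Cd14, the co-receptor for lipopolysaccharide, was at 164 and 243 CPM at day 3, against 490.2 and 639 CPM in controls, and fell by 1.42 ± 0.29 (edgeR adjusted p = 0.00126). Irak2, Tlr1 and Pycard were called in the full fit, with log2 changes of -1.68, -1.52 and 0.96, and lost their calls without day 3 P1 or control P2 (Irak2), without day 3 P1, day 3 P2 or control P2 (Pycard) and without any 1 of the 4 sums (Tlr1).

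Antigen presentation moved at single genes. Of MHC class II presentation, 8 of 11 listed genes were tested, 1 rose and 0 fell (2 rose without day 3 P1, 1 fell without day 3 P2, 3 rose and 1 fell without control P1). Its share of rises, 12.5%, is near the 11.9% of all genes. The gene that rose, Ifi30, a lysosomal thiol reductase that opens disulfides of antigens, was at 968 and 1255 CPM at day 3, against 322 and 265 CPM in controls, a change of 1.99 ± 0.25 (edgeR adjusted p = 1.06e-05). The peptide exchange gene H2-DMa was at 192 and 192 CPM at day 3, against 153 and 217 CPM in controls, and its partner H2-DMb1 at 247 and 124 CPM at day 3, against 153 and 116 CPM in controls, both with overlapping sums. Of MHC class I presentation, 11 of 16 listed genes were tested, 3 rose and 1 fell (0 fell without day 3 P1, 0 fell without day 3 P2, 0 fell without control P1). Calr and Pdia3, chaperones of class I loading, and the peptide transporter gene Tap1 rose, the last not without day 3 P1, day 3 P2 or control P2. H2-T23, a nonclassical class I gene, was at 356 and 376 CPM at day 3, against 751 and 632 CPM in controls, and fell (edgeR adjusted p = 0.0196; not called without day 3 P1, day 3 P2 or control P1). Class I genes have close copies, and reads may be shared among them.

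Of the interferon list, 21 of 39 listed genes were tested, 6 rose and 0 fell (17 rose without day 3 P1, 2 rose without day 3 P2, 11 rose without control P1), and all 21 had a log2 change above 0. Ifi27l2a was at 310.5 and 348 CPM at day 3, against 123 and 20.4 CPM in controls, a change of 2.61 ± 0.48 (edgeR adjusted p = 0.000729). Ifitm3, which blocks virus entry, was at 228 and 289 CPM at day 3, against 123 and 74.8 CPM in controls (edgeR adjusted p = 0.0157; not called without day 3 P2 or control P2). Of chemokines and cytokines, 14 of 31 listed genes were tested, 3 rose and 0 fell (1 fell without control P2). Mif, a cytokine with tautomerase activity, was at 283 and 238 CPM at day 3, against 61.3 and 67.97 CPM in controls, a change of 1.99 ± 0.41 (edgeR adjusted p = 0.00138). Ccl12, a monocyte attractant of mice whose reads may mix with those of its neighbour Ccl2, was at 1817 and 733 CPM at day 3, against 214 and 299 CPM in controls; it was not called (edgeR adjusted p = 0.059).

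Receptors that restrain microglia fell more often than they rose. Of inhibitory receptors and checkpoints, 15 of 28 listed genes were tested, 2 rose and 8 fell (5 fell without day 3 P1, 5 fell without day 3 P2, 1 rose and 3 fell without control P2), or 53.3% of those tested against 10.5% of all genes, and the median log2 change was -0.92. Vsir, the checkpoint receptor VISTA, was at 319.6 and 371 CPM at day 3, against 1088 and 1155 CPM in controls, and fell by 1.65 ± 0.23 (edgeR adjusted p = 3.13e-05). Sirpa, which reads the do-not-eat signal CD47, was at 612 and 659.6 CPM at day 3, against 1425 and 1189 CPM in controls, and fell by 0.99 ± 0.21 (edgeR adjusted p = 0.0016). The list was not uniform: Pilra, an inhibitory receptor for sialylated ligands, was at 384 and 270.3 CPM at day 3, against 61.3 and 74.8 CPM in controls, a rise of 2.20 ± 0.39 (edgeR adjusted p = 0.000388), as did Cd300lf. In all 3 named genes the day 3 and control sums lay apart, as they did in 62.9% of all tested genes.

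The G-protein signalling and growth factor lists held more falls than rises, with most members not called. Of G-protein signalling genes, 24 of 39 listed genes were tested, 1 rose and 7 fell (0 rose without day 3 P2, 2 rose without control P1), and the falls are 29.2% of those tested against 10.5% of all genes. Rgs2, which switches off G alpha q signals, was at 648 and 655 CPM at day 3, against 1379 and 1733 CPM in controls, and fell by 1.24 ± 0.21 (edgeR adjusted p = 0.000244). Gpr183, an oxysterol receptor, was at 82.2 and 77.9 CPM at day 3, against 260.4 and 204 CPM in controls, and fell, except without day 3 P2 or control P1. Gnai2, an inhibitory G alpha subunit, was the rise, at 1653 and 2034 CPM at day 3, against 1057 and 1053 CPM in controls (edgeR adjusted p = 0.012; not called without day 3 P2). Of growth factors and their receptors, 24 of 37 listed genes were tested, 0 rose and 5 fell (3 fell without day 3 P1), or 20.8% falling. Il6st, the signalling subunit of the interleukin 6 receptor, was at 73.1 and 137 CPM at day 3, against 429 and 476 CPM in controls, and fell by 1.98 ± 0.34 (edgeR adjusted p = 0.000285). Il6ra, the binding subunit, was at 137 and 197 CPM at day 3, against 689 and 442 CPM in controls, and fell by 1.63 ± 0.32 (edgeR adjusted p = 0.000893). In both, the control sums were more than 2 times either day 3 sum. Ifngr1, a chain of the interferon gamma receptor, was at 146 and 137 CPM at day 3, against 322 and 625 CPM in controls (edgeR adjusted p = 0.000557; not called without control P2).

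Of ion channels and transporters, 21 of 33 listed genes were tested, 3 rose and 3 fell (1 rose without day 3 P2, 5 fell without control P1, 1 rose and 1 fell without control P2). The share of 14.3% in either direction is near the 11.9% and 10.5% of all genes, so the counts say little of the list. Slco2b1, an organic anion transporter, was at 457 and 508 CPM at day 3, against 934 and 1101 CPM in controls, and fell by 1.05 ± 0.22 (edgeR adjusted p = 0.00178). Slc25a5, the ADP and ATP carrier of the mitochondrial membrane, was at 721 and 605 CPM at day 3, against 291 and 306 CPM in controls, a rise of 1.16 ± 0.25 (edgeR adjusted p = 0.00228). Slc2a5, the fructose transporter that marks microglia, and the cation channel gene Trpv2 changed by -2.01 and -1.31, and were not called without control P2 (Slc2a5) and without day 3 P2 or control P2 (Trpv2).

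The transcription regulator and immediate early lists held more falls than rises. Of microglia transcription regulators, 29 of 40 listed genes were tested, 1 rose and 6 fell (0 rose without day 3 P2, 2 rose without control P2), or 20.7% falling, with a median log2 change of -0.49. Maf, a basic leucine zipper factor of resident macrophages, was at 192 and 266 CPM at day 3, against 919 and 856 CPM in controls, and fell by 1.88 ± 0.26 (edgeR adjusted p = 4.23e-05). Mef2a, a MADS box factor, was at 247 and 302 CPM at day 3, against 781 and 618 CPM in controls, and fell by 1.27 ± 0.26 (edgeR adjusted p = 0.00126). Txnip, the thioredoxin-interacting protein that follows glucose, which the list also holds, was at 109.6 and 179 CPM at day 3, against 597 and 632 CPM in controls, and fell by 1.99 ± 0.29 (edgeR adjusted p = 6.24e-05). Of the immediate early and stress list, 21 of 38 listed genes were tested, 0 rose and 11 fell (7 fell without day 3 P2, 6 fell without control P2), or 52.4% of those tested against 10.5% of all genes. Beyond the classic members, Junb, an AP-1 subunit, was at 219 and 211 CPM at day 3, against 505 and 761 CPM in controls, and fell by 1.57 ± 0.33 (edgeR adjusted p = 0.00178). Rhob, a rapidly induced GTPase, was at 493 and 311 CPM at day 3, against 1241 and 768 CPM in controls (edgeR adjusted p = 0.0016; not called without day 3 P2). Btg2 and Zfp36l1, an antiproliferative factor and an RNA decay factor, changed by -1.62 and -1.28, and were not called without control P2 (Btg2) and without day 3 P2 or control P2 (Zfp36l1).

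Nuclear long noncoding RNAs stood out for Malat1, a nuclear speckle RNA, at 2027 and 2446 CPM at day 3, against 8103 and 10331 CPM in controls. It fell by 2.01 ± 0.20 (edgeR adjusted p = 8.64e-07). In wells with under 30% in the left-out genes the change was -2.17 (edgeR adjusted p = 0.000754). Neat1, the paraspeckle RNA, was at 91.3 and 77.9 CPM at day 3, against 199 and 299 CPM in controls, and fell (edgeR adjusted p = 0.00332; not called without day 3 P2 or control P2). Gas5 and Dleu2 were not called. Of the list, 7 of 18 listed genes were tested, 0 rose and 2 fell (1 fell without day 3 P2, 1 fell without control P2).

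Apoptosis genes had a median change near the 0.03 of all genes. Of apoptosis and p53 genes, 12 of 28 listed genes were tested, 0 rose and 0 fell, by edgeR, with a median log2 change of 0.03. Bax, a pore former of the mitochondrial outer membrane, was at 27.4 and 105 CPM at day 3, against 61.3 and 47.6 CPM in controls. Mdm2, the ligase that marks p53 for degradation, was at 82.2 and 32.1 CPM at day 3, against 30.6 and 40.8 CPM in controls. Both had overlapping sums. Of ubiquitin and SUMO genes, 21 of 25 listed genes were tested, 2 rose and 0 fell (1 fell without control P1), and 1 of the rises, Rps27a, encodes a ribosomal protein fused to ubiquitin. The rises are 9.52% of those tested, under the share of all genes, and the median log2 change of the list was 0.32. Per well the list made up 0.618, 0.535, 0.646 and 0.574% in the 4 day 3 libraries, against 0.512, 0.403, 0.426 and 0.494% in the 4 control libraries (library medians), higher in every day 3 library. Over the 40 pathway lists with 3 or more tested members, 30 had more rises than falls.

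The rates at which single wells held a transcript were compared at equal depth. At 1000 transcripts a gene's rate also follows its level. A low rate therefore cannot tell a shift in few wells from a low level in many. After thinning to 1000 transcripts, 379 of 3408 tested genes (11.1%) were held by a larger share of wells in every day 3 library than in every control library, and 378 (11.1%) by a smaller share. Of the named genes, 85 were held more often, 38 less often and 55 overlapped. These genes were chosen by their change in the same wells, so the counts are no separate evidence. Genes held by 50% or more of wells made up 4.72% of the tested genes at day 3 and 3.46% in controls. Genes held by 10% or more numbered 1742 at day 3 and 1852 in controls.

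**Figure D4:**
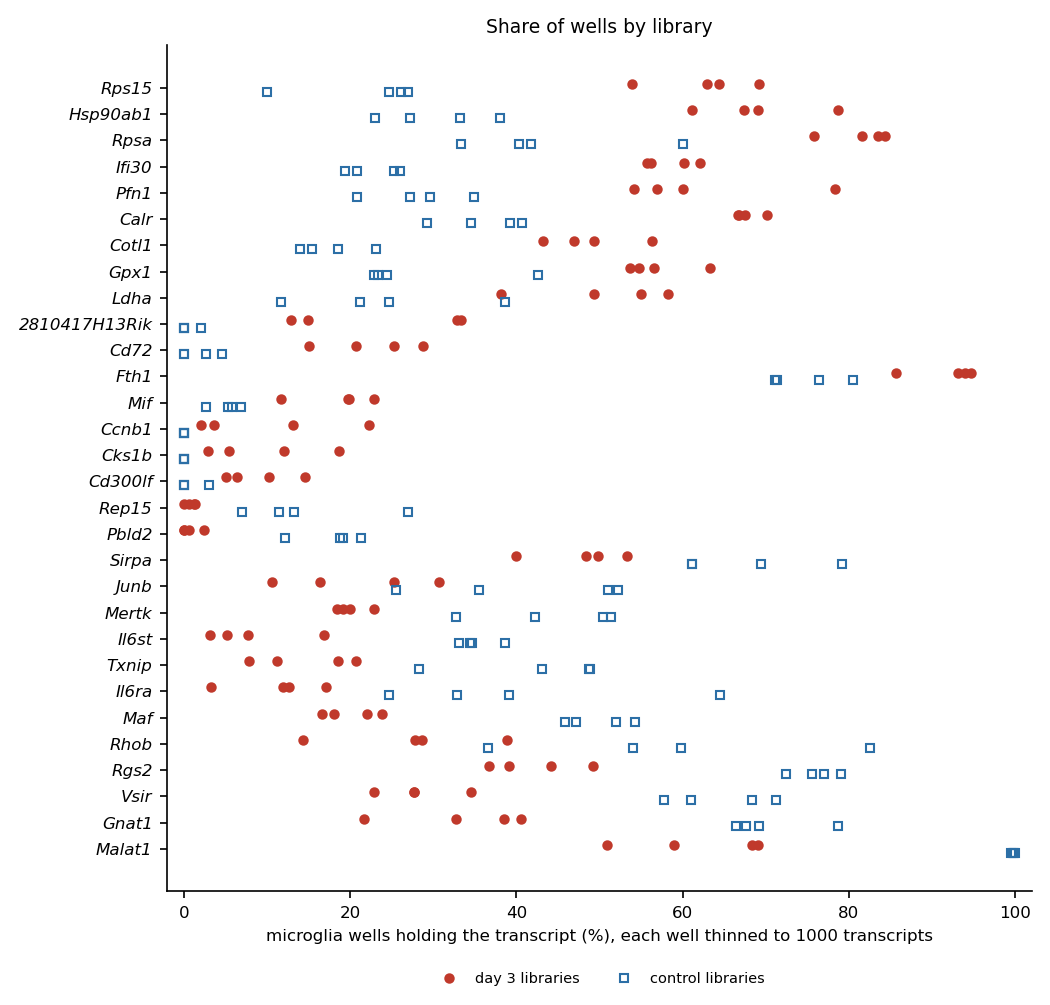
Share of microglia wells that held at least 1 transcript of a gene, with every well thinned to 1000 transcripts (x axis, percent; 1 point per library; red circles, day 3; open blue squares, control), ordered by the difference. Rps15, Hsp90ab1 and Ifi30 were held by 53.9% or more of wells in every day 3 library and by 38.1% or fewer in every control library, and Malat1 by 69.1% or fewer at day 3 and 99.6% or more in controls.

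Some genes that rose were held by more than 50% of wells in every day 3 library. Hsp90ab1 was held by 69.1, 61.2, 78.7 and 67.3% of wells in the 4 day 3 libraries, against 27.2, 38.1, 33.2 and 23.05% in the 4 control libraries. Calr was held by 66.7, 66.9, 70.2 and 67.5% of wells in the 4 day 3 libraries, against 39.2, 29.2, 34.6 and 40.7% in the 4 control libraries. Ifi30 was held by 55.8, 60.2, 56.2 and 62.1% of wells in the 4 day 3 libraries, against 26.0, 20.9, 25.3 and 19.4% in the 4 control libraries. In all 3 genes the lowest day 3 library was at least 20 points above the highest control library. Unthinned, wells that held Hsp90ab1 had a mean of 7.30 transcripts in day 3 wells, against 1.78 in control wells, and those that held Rps15 4.21 transcripts in day 3 wells, against 1.57 in control wells. Rps15 was held by 62.6% ± 6.35 of day 3 wells, against 22.0% ± 8.01 of control wells (SD over 4 libraries each). Pfn1 was held by 62.4% ± 10.9 of day 3 wells, against 28.1% ± 5.88 of control wells, and Gpx1 by 57.1% ± 4.30 of day 3 wells, against 28.3% ± 9.57 of control wells. Fth1 was held by most wells of both groups, at 91.9% ± 4.17 of day 3 wells, against 74.9% ± 4.51 of control wells, and wells that held it unthinned had a mean of 13.3 transcripts in day 3 wells, against 3.26 in control wells. The unthinned means of Hsp90ab1, Rps15 and Fth1 also follow depth. Library medians were 2575 to 2803 transcripts of the table's genes per day 3 well, against 1418 to 2036 per control well. The part of depth in these means was not tested.

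Surface receptor and division genes that rose were at lower levels and were held by smaller shares of wells. Cd72 was held by 15.1, 20.7, 28.7 and 25.2% of wells in the 4 day 3 libraries, against 0, 4.57, 0 and 2.70% in the 4 control libraries. Unthinned, it was in 38 of 81 day 3 wells and 3 of 120 control wells. Cd300lf was unthinned in 23 of 81 day 3 wells and 1 of 120 control wells. Unthinned counts of wells also follow depth, which was greater at day 3 over the table's genes. Ccnb1 was in 16 of 81 day 3 wells and 0 of 120 control wells, and after thinning in 22.3% of wells of day 3 library 1, 13.1% of library 3, 3.59% of library 4 and 2.06% of library 2. Libraries 1 and 3, which held the largest shares of dividing wells, led. Ccnb1 is in the mitosis list that helps define those wells, so this order is no separate evidence. 2810417H13Rik was more widely held, by 23.5% ± 11.1 of day 3 wells, against 0.509% ± 1.02 of control wells.

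For the falls shown here, fewer wells held the transcript. Vsir was held by 27.7, 34.5, 22.9 and 27.7% of wells in the 4 day 3 libraries, against 57.7, 71.2, 61.1 and 68.4% in the 4 control libraries. Maf was held by 16.7, 18.1, 22.1 and 23.9% of wells in the 4 day 3 libraries, against 54.3, 47.1, 45.8 and 52.04% in the 4 control libraries. Rgs2 was held by 39.2, 49.2, 36.8 and 44.2% of wells in the 4 day 3 libraries, against 79.0, 72.5, 77.0 and 75.6% in the 4 control libraries. No day 3 library of these genes reached any control library. In the wells that held Vsir the mean was 2.70 transcripts in day 3 wells, against 2.43 in control wells, so the count per positive well was not lower, in wells that held more transcripts of the table's genes at day 3. Il6st was held by 8.22% ± 6.06 of day 3 wells, against 35.2% ± 2.43 of control wells. Txnip was held by 14.6% ± 6.08 of day 3 wells, against 42.3% ± 9.65 of control wells, and Mertk by 20.1% ± 1.96 of day 3 wells, against 44.2% ± 8.65 of control wells. Malat1 was unthinned in 63 of 81 day 3 wells and 120 of 120 control wells, and its absence from 18 day 3 wells has no counterpart in controls. Sirpa differs by the treatment of depth: it was held by 47.9% ± 5.68 of day 3 wells, against 67.7% ± 8.56 of control wells after thinning, but by 86.4% of day 3 and 77.5% of control wells without it. For scale, Gnat1, the rod transducin alpha subunit, a photoreceptor gene chosen after its values were seen, was held by 32.8, 21.6, 38.5 and 40.6% of wells in the 4 day 3 libraries, against 69.2, 66.4, 67.6 and 78.7% in the 4 control libraries. Photoreceptor RNA thus reached wells of both groups, and a share of wells with a transcript can include RNA of other cells.

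**Figure D5:**
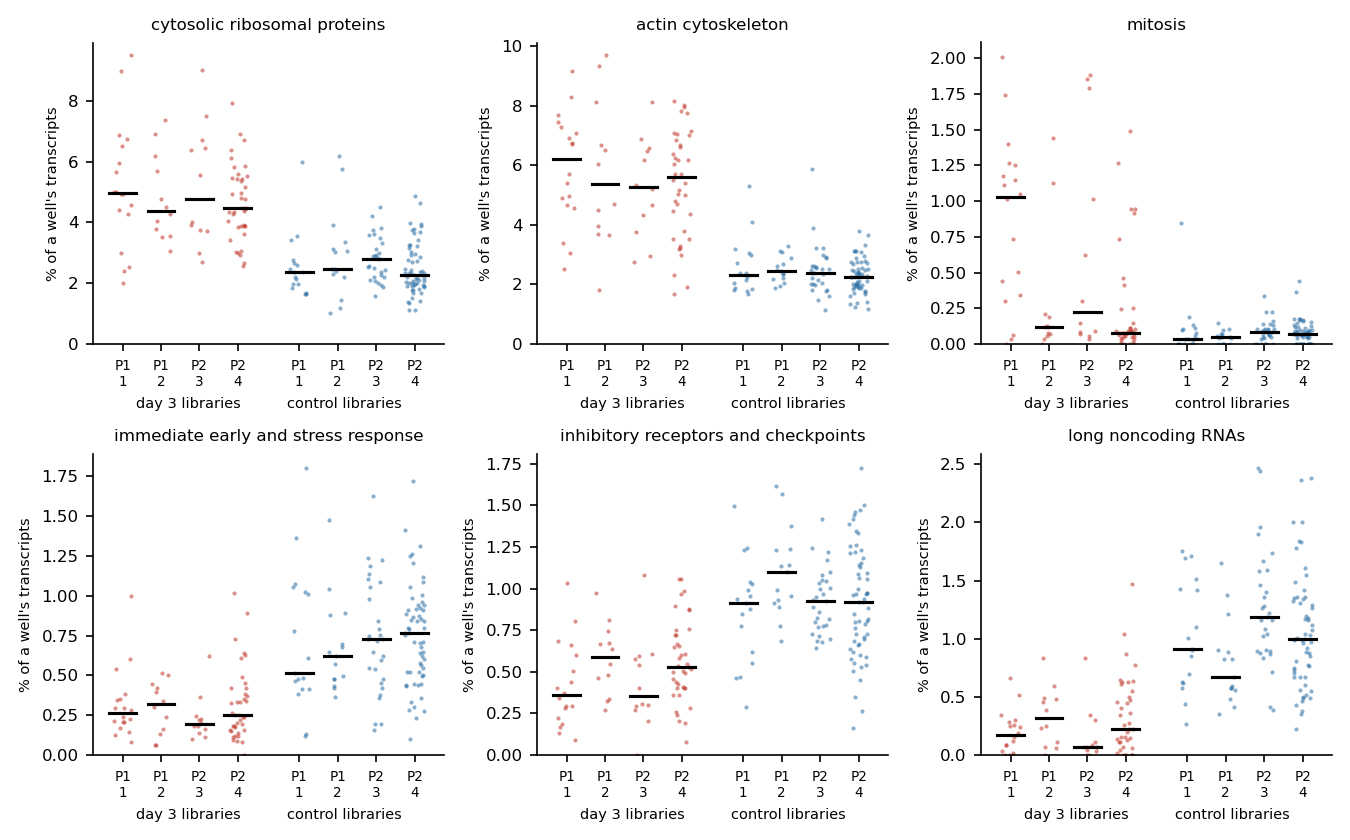
Share of a microglia well's transcripts (y axis, percent) that came from each of 6 gene lists, by library, day 3 left and control right (points are wells, bars library medians). Ribosomal and actin lists were above the median control well in 80 and 77 of 81 day 3 wells, and above the highest control well in 16 and 37. The mitosis list was high in a subset of wells and most of all in library 1. The lower 3 lists were below the median control well in most day 3 wells.

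Whole lists were compared per well too. The ribosomal protein list made up 4.96, 4.38, 4.78 and 4.47% in the 4 day 3 libraries, against 2.37, 2.47, 2.81 and 2.28% in the 4 control libraries (library medians). Of 81 day 3 wells, 80 were above the median control well and 16 above the highest control well. The actin list made up 6.21, 5.37, 5.28 and 5.61% in the 4 day 3 libraries, against 2.31, 2.46, 2.37 and 2.25% in the 4 control libraries, with 77 day 3 wells above the median control well and 37 above the highest control well. The mitosis list gave 1.03, 0.120, 0.227 and 0.0795% in the 4 day 3 libraries, against 0.0370, 0.0522, 0.0834 and 0.0706% in the 4 control libraries. Library 1 stood apart, libraries 2 and 3 lay above every control library and library 4 within their range, and 21 day 3 wells in all exceeded the highest control well. In the other direction, the immediate early list made up 0.261, 0.319, 0.192 and 0.250% in the 4 day 3 libraries, against 0.514, 0.619, 0.726 and 0.766% in the 4 control libraries, and 4 of 81 day 3 wells were above the median control well. Inhibitory receptors made up 0.358, 0.589, 0.354 and 0.527% in the 4 day 3 libraries, against 0.911, 1.10, 0.927 and 0.921% in the 4 control libraries, with 7 day 3 wells above the median control well. Long noncoding RNAs made up 0.170, 0.316, 0.0702 and 0.223% in the 4 day 3 libraries, against 0.912, 0.672, 1.19 and 0.996% in the 4 control libraries, with 2 day 3 wells above it. Of the 6 lists plotted, only the mitosis list had library medians that overlapped between the groups.

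The annotation as microglia was checked against markers. All 15 microglia markers were present in both groups and summed to 22829.8 and 27846 CPM at day 3, against 39076 and 41242 CPM in controls; 12 fell and 1 rose, a median log2 change of -1.19. The authors' cluster 6 held 39 of 81 day 3 wells (48.1%, 17 of them dividing) and 1 of 120 control wells (0.833%). Their second annotation by signature named 60 of 81 day 3 and 118 of 120 control wells microglia. Of the other day 3 wells it left 13 unassigned and named 4 lymphocytes, 3 macrophages and 1 monocyte. Of the other control wells it left 1 unassigned and named 1 lymphocyte. With only the wells that both annotations name microglia, 560 genes were called in place of 766, and 536 of the 766 kept their call. The 12 monocyte markers summed to 922 and 1200.1 CPM at day 3, against 91.9 and 81.6 CPM in controls. Of these, Fn1 held 813 and 650.5 CPM at day 3, and the day 3 P2 sum also held Ccr2 (156 CPM), Ly6c2 (124 CPM) and Plac8 (174 CPM), each at 28 CPM or less in the other sums, while Vcan was at 0 throughout. Markers of T and NK cells summed to 27.4 and 68.7 CPM at day 3, against 15.3 and 81.6 CPM in controls. Neutrophil markers summed to 219 and 348 CPM at day 3, against 781 and 836 CPM in controls, with S100a9, Retnlg, Mmp9, Camp, Ngp and Ltf at 0 at day 3. Border macrophage markers summed to 63.9 and 128 CPM at day 3, against 123 and 163.1 CPM in controls, with Mrc1, Cd163, Lyve1 and F13a1 at 0 in both groups. Rod and cone markers summed to 2173 and 3426 CPM at day 3, against 4626 and 7816 CPM in controls. With Fn1 and Nr4a1 kept out of the markers, no well held 1% or more of its transcripts in markers of other leukocytes. The fit without such wells was thus the same. With both genes counted, the 12 monocyte markers made up 1.06% of the highest day 3 well. The part of Fn1 and of the smaller amounts was not tested.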

How the data were processed

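Single cells were sorted by the authors into plates and sequenced with mCEL-Seq2, per the labels' protocols, and reads were aligned with BWA 0.6.2-r126, per the submitters' processing notes. The build, the gene annotation and the rules of counting were not given in the sources used here. The deposited tables hold estimated counts of molecules for each gene in each well, corrected by the authors for molecular identifiers, and were used without other normalization. The authors' annotation supplied the microglia wells. Their retina table has 19989 rows with values and lacks 96 genes of the library tables, which held 37.2% of these wells' transcripts.

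Wells were summed by group and name prefix, sums were rounded to whole numbers, and 6 sums (day 3, day 7 and control, each P1 and P2) were fitted with edgeR 4.0.16 in R 4.3.3 (filterByExpr, TMM scaling, robust quasi-likelihood F test), contrast day 3 minus control, with Benjamini-Hochberg adjustment over 3408 genes and a threshold of 0.05. The sums are the replicates, n = 2 a group. The day 7 sums share the estimate of spread and also enter the filter on low counts and the TMM scaling. SE is the size of the log2 change divided by the square root of F. For a group with no transcript, a bound was set with 3 transcripts over the group, and ratios on 1 to 3 transcripts have exact 95% intervals. These cover counting error only. Shares of wells are expected values after thinning to 1000 transcripts, per library, with no test. No microglia well held under 1000 transcripts. Each well was meant to hold 1 cell, and no doublet caller was run. Promoters came from the RefSeq table of GRCm38.p6.

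The naming rule took genes outside the classic set. It chose called genes, the 15 with the largest rise and the 15 with the largest fall, among those with 50 CPM or more in the higher group and sums that do not overlap, plus up to 4 genes with the smallest adjusted p from each list with 3 or more tested genes. Members, lists and tests were chosen with earlier results of these data known. The alternatives were DESeq2 1.42.0, other scaling, filters, well sets, single libraries, a replicate block and leaving out each sum. The fit was tested on simulated data. A few genes are not reported here.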

Additional observations from a re-analysis of the deposited data

Results flagged for a closer look

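Among 88 groups of 4 libraries examined, 6 had a library whose gap to the nearest other, as a share of the group's range, passed the 95% limit of Dixon's test for 4 values, and chance gives such a gap in about 1 of 20 groups. Division transcripts were concentrated in day 3 library 1, where the mitosis list made up 1.03% of a median well, against 0.0795 to 0.227% in the other 3 day 3 libraries.

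The remaining libraries of this kind were controls. Rps15 was held by 10.02% of wells in control library 1, against 24.7 to 26.9% in the others. Gpx1 was held by 42.65% in control library 2, against 22.9 to 24.4% in the others. Cd300lf was held by 3.03% of wells in control library 1 and 2810417H13Rik by 2.04% in control library 4, against 0 in the other control libraries. Inhibitory receptors made up 1.10% of a median well in control library 2, against 0.911 to 0.927% in the others. In each of these 5, all day 3 libraries lay on the same side of all control libraries.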

How the results depend on the processing

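Against 766 calls (407 rises and 359 falls), DESeq2 made 227 (137 rises and 90 falls), sums thinned to the smallest gave 363, of which 172 were falls, and the fit without dividing wells 348 (198 rises and 150 falls). Wells with under 30% in the left-out genes, 66 at day 3 and 36 in controls, an alternative added after the data were seen, gave 138 (63 rises and 75 falls) over fewer genes and wells. Leaving out 1 sum gave 416 to 807 calls (258 to 442 rises and 158 to 365 falls). Without TMM scaling 786 were called (340 rises and 446 falls), the share of rises being 43.3% in place of 53.1% and the median of all genes -0.09 in place of 0.03. Of the 766 calls, 125 were called in wells poor in left-out genes, 339 without dividing wells and 225 by DESeq2. Lists with more rises than falls numbered 30, but 19 in wells poor in left-out genes. Detection separated the libraries in 123 named genes at 1000 transcripts and in 75 at 2000, where 22 day 3 and 88 control wells were too shallow.

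Sums share a prefix and no stated source, and the correlation of their deviations between day 3 and control was 0.02. The replicate block gave 821 calls (426 rises and 395 falls), and kept 757 of the 766. Leaving out 1 library gave differences of 847 to 1053 transcripts per well and -52.6 to -48.2 genes per well, which miss the threshold because 3 libraries against 4 cannot reach it. With all genes of the library tables in the total, added after the data were seen, the difference was 452.6 transcripts per well, no longer past the threshold. The mitochondrial difference was -0.83 points with the other left-out genes kept out of the total, and the share of wells with Sirpa was 2.09 points higher at day 3 without thinning.

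Among named genes, log2 changes turned sign only where the gene was not called. Without 1 sum, Bax ranged over -0.84 to 1.11, Mdm2 over -0.10 to 0.42, S100a6 over -2.95 to 0.87 and H2-DMa over -0.088 to 0.42. Gas5 was 0.13 in wells poor in left-out genes, where H2-DMa was -0.34. H2-DMa was also -0.089 without TMM scaling, -0.022 with day 3 and control sums alone, -0.051 with single libraries, -0.0077 without mitochondrial genes, -0.044 with filtered wells, -0.083 without photoreceptor-rich wells and -0.0059 with all genes of the library tables. The cause was not tested for any of these. The small control sums limit genes near 15 CPM, which is 1 transcript of the control P1 sum.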
